A study of Mus musculus with 13 samples.

Results

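The 10 genes followed here are the 4 Notch receptors (Notch1, Notch2, Notch3 and Notch4), 4 of their ligands (Dll1, Dll4, Jag1 and Jag2) and 2 target genes (Hes1 and Hey1). They were taken by gene symbol from the 23364 genes of a time course of the mouse submandibular gland, the salivary gland beneath the jaw. No rule on their levels was used, but the list was chosen with earlier results of these data known. All 10 had at least 1 FPKM (fragments per kilobase of transcript, scaled to the mapped reads of a sample) in at least 1 sample, as did 14650 of the 23364 genes. RNA-seq was performed on 13 samples of dissected glands from C57BL/6 mice for which no treatment or transgene is named, at embryonic days E14.5 (3 samples), E16.5 (2) and E18.5 (2), at postnatal day 5 (P5, 2 samples), and at 4 weeks (4wk, 2) and 12 weeks (12wk, 2) of age. The embryonic samples were pools of glands, from 3 animals at E14.5 and from 2 animals at E16.5 and E18.5. The sex of the embryos and P5 mice was not ascertained and the 4wk and 12wk mice were male, so that age and sex cannot be told apart after P5. The 7 samples of E14.5 to E18.5 were also compared as a single embryonic group with the 2 neonatal samples (P5) and with the 4 adult samples (4wk and 12wk).

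Notch receptors are membrane proteins that are activated by Delta-like or Jagged ligands on a neighbouring cell. Binding leads to cleavage of the receptor by an ADAM protease and by γ-secretase, and the freed intracellular part enters the nucleus, where it acts with the DNA-binding protein Rbpj and Mastermind-like coactivators on target genes. The Hes and Hey targets encode repressors of transcription. The pathway is known for its part in choices of cell fate in epithelia, and in blood vessels Notch1, Notch4 and Dll4 act in endothelial cells and Notch3 in the mural cells around them.

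The tissue and the depth of the samples bear on all values below. The reads on genes were between 17345305 and 37309531 in the embryo, between 42168626 and 48314162 in P5 glands, and from 5817293 to 28431454 among adult samples, and the 10 members were covered by 152 to 6856 reads per gene and embryonic sample, 252 to 4503 at P5 and 4 to 1140 in the adult. The 10 genes with the highest values in a sample took 5.9 to 9.3% of its summed FPKM at E14.5 and E16.5 and 48.1 to 61.1% in the adult, and all other genes shared the rest. The study describes its FPKM as brought to a common scale between samples with DESeq medians, but such factors computed from the deposited values ran from 1.148 to 1.38 in the embryo and from 0.617 to 0.714 in the adult, where values already on that scale would give factors near 1. Most changes are therefore given both with the deposited FPKM and after division by median-of-ratios factors, which set the typical gene equal between samples. The rescaling moved the median log2 change of all tested genes from embryo to adult from -0.75 to -0.08, and from P5 to adult from -0.53 to -0.05. Epithelial markers were present at every age, with a summed level of 388 to 1460 FPKM in the embryo and 662 to 757 in the adult. The 7 skeletal muscle markers summed to 132 to 418 FPKM at E14.5 and 650 to 665 at E16.5, but to 4.38 to 26.3 at E18.5, 1.83 to 6.04 at P5 and 0.789 to 22.1 in the adult, with Myod1, Myog, Actn2, Myh3 and Myh8 at 0 in some samples. The part of this muscle RNA in the levels of the members was not tested.

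Among the receptors, Notch1 was highest at E14.5, while Notch3 was near its E14.5 level up to P5. Notch1, the receptor needed for vessel formation and for many stem and progenitor cells (mm9 chr2:26313423-26372183, minus strand), was measured at 16.1, 20.01 and 21.1 FPKM in the E14.5 samples, 10.6 and 18.7 in those of E16.5, 8.998 and 7.18 in those of E18.5, 6.504 and 5.34 in those of P5, 4.004 and 2.01 in those of 4wk, and 2.91 and 2.87 in those of 12wk. Its values were highest at E14.5 and lower at every later time point in the mean, and the embryonic samples lay above those of P5, which lay above those of the adult. Notch3, the receptor of the vascular mural cells (mm9 chr17:32257765-32303825, minus strand), was measured at 11.99, 13.5 and 14.6 FPKM in the E14.5 samples, 11.3 and 23.1 in those of E16.5, 12.7 and 10.2 in those of E18.5, 11.7 and 8.998 in those of P5, 2.58 and 1.35 in those of 4wk, and 1.91 and 1.72 in those of 12wk. Consecutive time points overlapped from E14.5 through P5, and all 4 adult samples lay far below them. The higher of the E16.5 samples stood apart from all other embryonic samples for Notch3.

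Notch2, a receptor widely expressed in epithelia and connective tissue (mm9 chr3:97817461-97954290, plus strand), was measured at 14.48, 8.14 and 8.29 FPKM in the E14.5 samples, 5.4 and 9.32 in those of E16.5, 6.38 and 4.703 in those of E18.5, 8.29 and 7.46 in those of P5, 3.63 and 2.42 in those of 4wk, and 4.196 and 3.82 in those of 12wk. The E14.5 sample of replicate 1 was the highest of all, and the P5 samples lay within the range of the embryo. The adult samples were below all others, and the 12wk mean was 38.9% of the E14.5 mean, against 13.6 to 26.9% for the other receptors. Notch4, a receptor found mainly in endothelial cells (mm9 chr17:34701213-34725448, plus strand), had values of 1.53, 2.51 and 2.54 FPKM in the E14.5 samples, 2.23 and 3.36 in those of E16.5, 1.98 and 1.601 in those of E18.5, 2.22 and 1.404 in those of P5, 0.989 and 0.609 in those of 4wk, and 0.666 and 0.511 in those of 12wk. It was the lowest receptor at every time point, and its adult samples, all under 1 FPKM, did not overlap with those of the embryo or P5.

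The ligands of the Jagged family were the more abundant ones at every age. Jag2 (mm9 chr12:114146801-114167706, minus strand) was measured at 19.1, 22.5 and 23.9 FPKM in the E14.5 samples, 15.4 and 25.8 in those of E16.5, 12.6 and 10.1 in those of E18.5, 13.7 and 11.9 in those of P5, 4.37 and 3.19 in those of 4wk, and 3.58 and 3.23 in those of 12wk. It ranked above the other 3 ligands in every sample, and its adult samples lay well below the lowest embryonic sample. Jag1, the ligand mutated in Alagille syndrome (mm9 chr2:136907192-136942380, minus strand), was at 11.7, 12.2 and 13.3 FPKM in the E14.5 samples, 7.38 and 12.7 in those of E16.5, 9.11 and 6.09 in those of E18.5, 7.61 and 6.79 in those of P5, 1.88 and 2.11 in those of 4wk, and 2.75 and 2.43 in those of 12wk. The P5 samples lay inside the embryonic range and all adult samples below it.

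The Delta-like ligands were lower and differed in when their levels went down. Dll1, known for lateral inhibition between neighbouring cells (mm9 chr17:15504318-15513836, minus strand), was measured at 3.98, 5.25 and 5.85 FPKM in the E14.5 samples, 4.16 and 6.78 in those of E16.5, 2.59 and 2.904 in those of E18.5, 2.19 and 1.81 in those of P5, 0.602 and 0.953 in those of 4wk, and 1.11 and 1.11 in those of 12wk. The P5 samples were already below every embryonic sample, with a mean of 39.7% of the E14.5 mean. Dll4, the ligand of endothelial tip cells and arteries (mm9 chr2:119151520-119161698, plus strand), was at 2.44, 3.097 and 3.003 FPKM in the E14.5 samples, 2.16 and 3.22 in those of E16.5, 2.54 and 2.43 in those of E18.5, 2.51 and 1.79 in those of P5, 0.199 and 0.401 in those of 4wk, and 0.239 and 0.306 in those of 12wk. Its level at P5 was still 75.5% of the E14.5 mean, and at 12wk it was 9.58%. The adult values rest on 4 and 11 reads at 4wk and 18 and 30 reads at 12wk. For the 4wk sample with 4 reads the exact Poisson 95% interval was 0.0543 to 0.51 FPKM, which covers counting error only. The counted gene Gm14207 overlaps exons of Dll4, and reads over both genes were not counted by the authors.

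The targets Hes1 and Hey1 were both highest in the embryo, at different time points. Hes1, a repressor that keeps progenitors undifferentiated (mm9 chr16:30064470-30067882, plus strand), was measured at 29.3, 31.99 and 33.2 FPKM in the E14.5 samples, 40.3 and 58.2 in those of E16.5, 24.95 and 21.9 in those of E18.5, 25.5 and 23.2 in those of P5, 12.2 and 11.4 in those of 4wk, and 9.41 and 10.5 in those of 12wk. Both E16.5 samples lay above all other samples, the E18.5 and P5 samples overlapped, and the adult samples were the lowest. Hey1, a target known from vessels and heart (mm9 chr3:8663362-8667039, minus strand), was at 14.96, 21.8 and 22.5 FPKM in the E14.5 samples, 14.3 and 17.03 in those of E16.5, 6.22 and 6.63 in those of E18.5, 2.99 and 2.71 in those of P5, 2.26 and 1.71 in those of 4wk, and 2.08 and 1.404 in those of 12wk. The E14.5 and E16.5 samples overlapped, the E18.5 samples lay below both, the P5 samples below those of E18.5, and the adult samples were the lowest. The P5 mean of Hey1 was 14.4% of its E14.5 mean, the smallest such share of the 10 members, against 77.3% for Hes1.

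**Figure D1:**
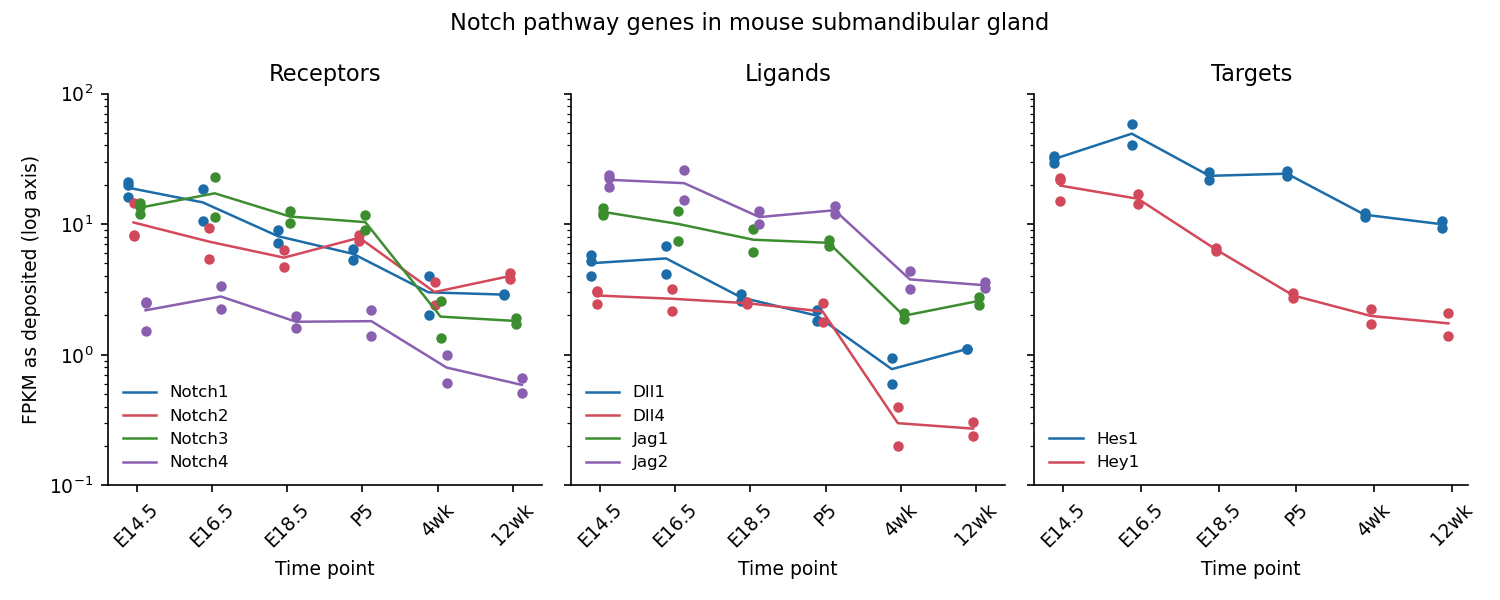
FPKM of the 4 receptors, 4 ligands and 2 targets at the 6 time points on a log axis, with 1 point per sample and a line through the means (3 samples at E14.5, 2 at the others). Hes1 was the highest member throughout, Dll4 went from 2.15 FPKM at P5 to 0.3 at 4wk in the mean, and Hey1 went down already before birth.

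Since FPKM are per length, levels can be set beside each other within a sample. Hes1 had the highest mean of the 10 members at each time point, with all its samples above those of the next gene (31.5 ± 1.99 FPKM against 21.9 ± 2.48 for Jag2, SD, n = 3, at E14.5). At E14.5, Jag2, Hey1 and Notch1 followed, and these 3 neighbours overlapped between samples. At E16.5, the neighbours from Jag2 down to Dll1 could not be separated by their samples. At P5 the order was Hes1, Jag2, Notch3, Notch2, Jag1, Notch1 and Hey1, with only Notch2 and Jag1 overlapping among these neighbours. Dll4, Dll1 and Notch4 came last at P5, with overlapping neighbours. At 12wk the order was Hes1, Notch2, Jag2, Notch1, Jag1, Notch3, Hey1, Dll1, Notch4 and Dll4, and only the neighbours Notch3 and Hey1 overlapped. Notch2 thus came second at 12wk (4.01 ± 0.269 FPKM, SD, n = 2) and seventh at E14.5 (10.3 ± 3.62 FPKM, SD, n = 3).

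RefSeq start sites (GRCm38.p6) were matched for 8 of the 10 members, with 9 start sites; Hes1 and Hey1 were not matched. The 250 bases before each start were searched on both strands for the core motif of Rbpj, which reads TGGGAA or on the other strand TTCCCA, and for the N-box bound by Hes proteins, which reads CACNAG or on the other strand CTNGTG. The Rbpj motif was in 0 of the 8 members, while 21.6% of the 32851 windows of all promoters held it. The N-box was in 4 of 8 members, against 36.7% of all windows, and no matches of the 2 motifs overlapped. Shown here are the receptors and the ligand with the clearest changes that had an N-box, and Hey2, a further target gene of the pathway, which had an Rbpj motif. The windows are those of Notch1 (chr2:26503823-26504072, minus strand), Notch3 (chr17:32166891-32167140, minus strand), Dll4 (chr2:119325534-119325783, plus strand) and Hey2 (chr10:30842784-30843033, minus strand), written 5′ to 3′ on the strand of the gene, with the matches in capitals.
Notch1: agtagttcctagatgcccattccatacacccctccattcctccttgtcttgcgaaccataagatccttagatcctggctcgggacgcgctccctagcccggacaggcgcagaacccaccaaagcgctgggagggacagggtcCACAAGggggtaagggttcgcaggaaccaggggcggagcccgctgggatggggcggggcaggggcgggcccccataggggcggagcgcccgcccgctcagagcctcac
Notch3: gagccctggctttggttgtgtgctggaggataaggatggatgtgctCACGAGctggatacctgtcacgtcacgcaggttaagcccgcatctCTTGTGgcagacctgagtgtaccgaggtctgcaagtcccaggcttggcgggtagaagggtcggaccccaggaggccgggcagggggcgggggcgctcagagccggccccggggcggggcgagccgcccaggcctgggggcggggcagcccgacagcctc
Dll4: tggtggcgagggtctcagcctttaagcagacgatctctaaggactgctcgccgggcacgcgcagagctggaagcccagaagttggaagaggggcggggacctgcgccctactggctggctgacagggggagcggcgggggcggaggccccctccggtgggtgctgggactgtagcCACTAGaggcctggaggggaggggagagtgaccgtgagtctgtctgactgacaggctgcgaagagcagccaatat
Hey2: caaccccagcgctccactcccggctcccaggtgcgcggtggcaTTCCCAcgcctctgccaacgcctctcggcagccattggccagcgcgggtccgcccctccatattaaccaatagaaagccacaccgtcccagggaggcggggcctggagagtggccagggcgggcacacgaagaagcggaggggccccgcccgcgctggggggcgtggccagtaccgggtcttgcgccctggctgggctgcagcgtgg
The N-box began 108 bases before the start in Notch1, 204 and 159 bases before it in Notch3 and 75 bases before it in Dll4, and the Rbpj motif began 207 bases before the start of Hey2. A match describes these letters only.

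From embryo to adult, 8 of the 10 members fell and none rose. The test was limma on log2(FPKM + 1) over all 14650 genes, which understates changes of low genes, and a gene passed if its log2 change was 1 or more in size with an adjusted p under 0.1. Under the same rule 38.0% of all tested genes fell and 5.58% rose. Hey1 fell by 2.34 on the log2 scale, as are all changes below (SE 0.31, adjusted p = 1.1e-05), with an embryonic mean of 14.8 ± 6.49 FPKM (SD, n = 7) and an adult mean of 1.86 ± 0.383 (SD, n = 4). Notch3 fell by 2.34 (SE 0.19, adjusted p = 1.7e-07), from 13.9 ± 4.31 to 1.89 ± 0.515 FPKM. The fall of Jag2 was -2.03 (SE 0.22, adjusted p = 2.2e-06), that of Notch1 -1.92 (SE 0.27, adjusted p = 2.1e-05) and that of Jag1 -1.75 (SE 0.19, adjusted p = 2.4e-06). Dll4 (-1.52), Hes1 (-1.51) and Dll1 (-1.46) fell too. Notch2 (-0.96, adjusted p = 0.002) and Notch4 (-0.93, adjusted p = 0.00018) stayed just under the fold limit. Notch2 passed without E16.5 replicate 1 (-1.03), without E18.5 replicate 2 (-1.06) or without 12wk replicate 1 (-1.03), and Notch4 without 4wk replicate 1 (-1.01). With a pseudocount of 0.1 in place of 1, all 10 members fell, Notch2 at -1.12 and Notch4 at -1.56, where 7326 of the 14650 genes fell, and Dll4 was at -2.87. In bulk tissue, fewer cells of a type and less RNA per cell cannot be told apart.

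After the rescaling, 5 of the 10 members fell from embryo to adult, where 14.7% of all genes fell and 13.8% rose. These were Notch3 (-1.61, SE 0.17), Hey1 (-1.61, SE 0.28), Jag2 (-1.21, SE 0.19), Notch1 (-1.13, SE 0.24) and Dll4 (-1.11, SE 0.12), with limma adjusted p between 2.8e-06 for Notch3 and 0.001 for Notch1. Jag1, at -1.0, was just short of the fold limit. Dll1 had a change of -0.86, Hes1 of -0.61, Notch4 of -0.43 and Notch2 of -0.17. The median of the 10 members was -1.64 with deposited values and -1.05 after rescaling, beside -0.75 and -0.08 for all genes. The 7 embryonic and 4 adult samples were apart, with the adult lower, for all 10 members with deposited values and for 8 after rescaling, where Notch2 and Notch4 overlapped. Of all genes, 54.1% were apart in this direction with deposited values and 24.0% after rescaling.

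**Figure D2:**
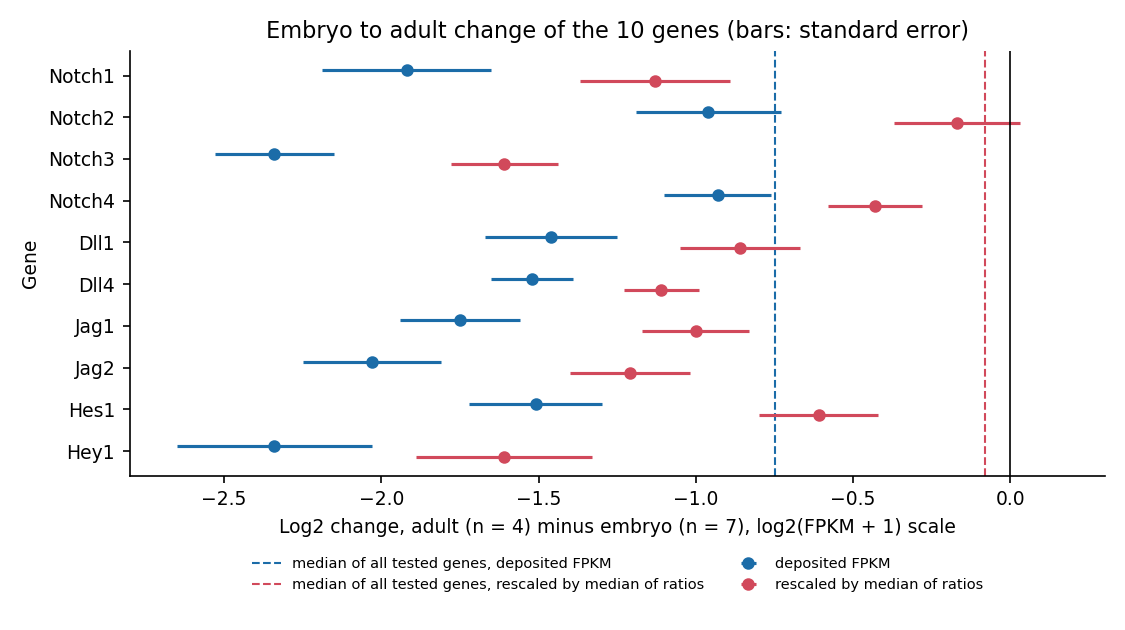
Log2 change from embryo (7 samples) to adult (4 samples) of each member with its standard error, with deposited FPKM in blue and rescaled FPKM in red, and dashed lines at the median of all 14650 tested genes (-0.75 and -0.08). Notch3 and Hey1 lie farthest to the left on both scales, and Notch2 is close to the red line after rescaling.

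From the pooled embryonic samples to P5, the target Hey1 and the receptor Notch1 fell. The embryonic group joins E14.5, E16.5 and E18.5, so its spread includes changes between these ages. The mean of Notch1 was 19.06 FPKM at E14.5, 14.67 at E16.5 and 8.09 at E18.5. From E18.5 to P5 alone, Notch1 changed by -0.39 (limma adjusted p = 0.36) and by -0.25 after rescaling. Hey1 fell by 1.91 (SE 0.39, limma adjusted p = 0.0052) and Notch1 by 1.09 (SE 0.35, adjusted p = 0.033), so that 2 of 10 members fell and none rose, against 8.14% of all genes that fell. Dll1 had the next largest change, at -0.83 (adjusted p = 0.033), under the fold limit. The other 7 lay between -0.44 for Jag2 and 0.03 for Notch2. After rescaling Hey1 fell by 1.65 (SE 0.36, adjusted p = 0.01) as the only member, against 3.90% of all genes, and Notch1 was at -0.84 (adjusted p = 0.07). Notch1 also did not pass without E14.5 replicate 3 (-0.99), without P5 replicate 1 (-1.21, adjusted p = 0.15), without P5 replicate 2 (-0.97, adjusted p = 0.23), or with the replicate number as a block (-0.99, adjusted p = 0.069). With a pseudocount of 0.1, Dll1 fell as well (-1.07, adjusted p = 0.044), against 10.7% of all genes. Notch1, Dll1 and Hey1 were the 3 members with both P5 samples below all 7 embryonic samples on both scales, which held for 33.8% of all genes with deposited values and 21.2% after rescaling.

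Between P5 and adult, Notch3, Dll4, the Jagged ligands and Hes1 fell with deposited values. Notch3 fell by 1.98 (SE 0.27, limma adjusted p = 0.00014), Jag2 by 1.59 (SE 0.31, adjusted p = 0.0015), Jag1 by 1.32 (SE 0.27, adjusted p = 0.0019), Dll4 by 1.28 (SE 0.18, adjusted p = 0.00016) and Hes1 by 1.1 (SE 0.29, adjusted p = 0.0082). That made 5 of 10 members, against 20.8% of all genes. Notch2 (-0.99), Notch1 (-0.83), Notch4 (-0.72), Dll1 (-0.63) and Hey1 (-0.44, adjusted p = 0.42) did not pass. Notch2 was at -1.01 to -1.06 and passed when P5 replicate 2, 4wk replicate 1 or either 12wk sample was left out. With a pseudocount of 0.1, 9 members fell, all but Hey1, against 33.5% of all genes, and Dll4 was at -2.55. After rescaling, Notch3 (-1.5, limma adjusted p = 0.00052), Dll4 (-1.07, adjusted p = 0.00056) and Jag2 (-1.03, adjusted p = 0.011) fell, 3 of 10 members against 8.53% of all genes. Jag1 (-0.81) and Hes1 (-0.46) did not pass on that scale, and Hey1 was at 0.04. All 10 members had both P5 samples above the 4 adult samples with deposited values, as did 63.4% of all genes, and 6 of 10 after rescaling, as did 30.1%.

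The consecutive time points placed these changes more closely. From E14.5 to E16.5 no member fell or rose by the rule in the limma fit (0.983% of all genes fell). The change of Hes1 was 0.61 (SE 0.15, adjusted p = 0.018) and 0.60 after rescaling, under the fold limit. From E16.5 to E18.5, both targets fell, Hey1 by 1.16 (SE 0.21, adjusted p = 0.0077) and Hes1 by 1.02 (SE 0.16, adjusted p = 0.0039), against 1.85% of all genes. After rescaling Hey1 (-1.0, adjusted p = 0.014) passed and Hes1 (-0.87, adjusted p = 0.0064) did not, against 1.17% of all genes. The muscle markers went from 650 and 665 FPKM at E16.5 to 4.38 and 26.3 at E18.5 over the same step, and their part in it was not tested.

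The E16.5 samples differed from each other, with replicate 2 above replicate 1 by a factor of 1.19 for Hey1 to 2.04 for Notch3 among the 10 members. Leaving out E16.5 replicate 1 left a single sample at that age. The changes from E16.5 to E18.5 were then -1.12 for Notch1, -1.06 for Dll1 and -1.13 for Jag2, and -1.28 for both Hes1 and Hey1. Without E16.5 replicate 2, Hey1 was at -1.04 and Hes1 at -0.76. With E18.5 replicate 2 left out, Hes1 was at -0.93.

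From E18.5 to P5 no member passed in the limma fit (2.97% of all genes fell). The change of Hey1 was -0.95 (SE 0.21, adjusted p = 0.011) and -0.80 after rescaling, under the fold limit. Without P5 replicate 1 Hey1 was at -1.0 and passed (adjusted p = 0.067), as it did with a pseudocount of 0.1 (-1.15), where 4.40% of all genes fell. From P5 to 4wk, 5 members fell, against 22.1% of all genes: Notch3 by 1.96, Jag2 by 1.54, Jag1 by 1.45, Dll4 by 1.27 and Notch2 by 1.16, with adjusted p from 0.00023 for Jag2 to 0.006 for Notch2. Hes1 was at -0.98 and Hey1 at -0.37. Without 4wk replicate 2, Notch2 was at -0.94 and did not pass. Without 4wk replicate 1, Notch1 (-1.19) and Hes1 (-1.03) fell too, as Hes1 did without P5 replicate 2 (-1.05). With a pseudocount of 0.1, 9 members fell, all but Hey1, against 36.3% of all genes. After rescaling Notch3 (-1.48) and Dll4 (-1.05) fell, against 8.72% of all genes, and Jag2 (-0.98) and Jag1 (-0.96) were just short of the fold limit. Between 4wk and 12wk, 0 of 10 members passed in the limma fit, while 2.48% of all genes fell, and the changes lay between -0.22 for Hes1 and 0.33 for Notch2. After rescaling none passed either, with changes between -0.22 for Hes1 and 0.38 for Notch2. The 4wk samples were the shallowest of the series, with 5817293 and 7957918 reads on genes.

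**Figure D3:**
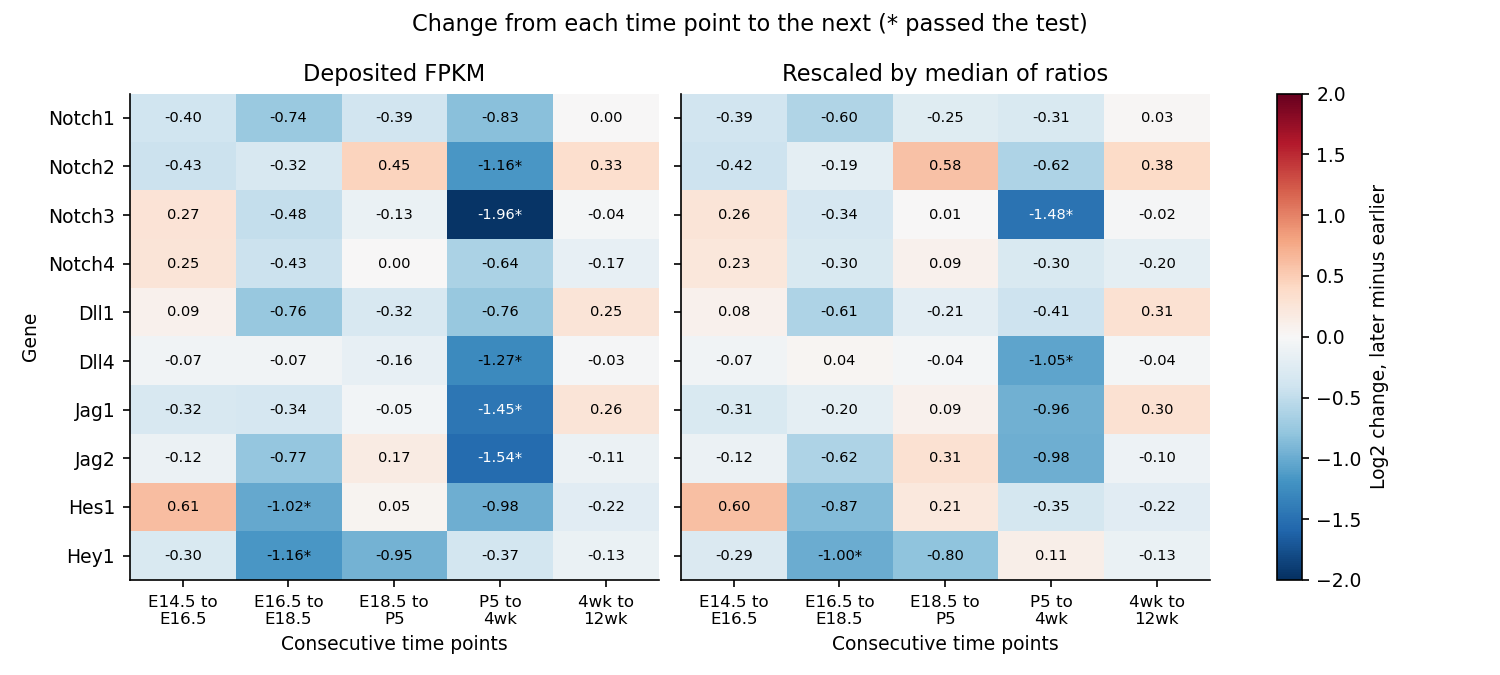
Log2 change of each member from a time point to the next, with deposited FPKM on the left and rescaled FPKM on the right. Blue is lower at the later time point, and an asterisk marks a change that passed the test. The changes of Hey1 lie at E16.5 to P5, and those of Notch3 and Dll4 at P5 to 4wk.

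The share of each receptor in the summed FPKM of the 4 receptors does not depend on how samples are scaled. Notch3 held 36.4 ± 6.6% in the embryo (SD, n = 7) and 20.8 ± 1.7% in the adult (n = 4), and the groups were apart (two-sided exact permutation test, p = 0.0061, adjusted over the 4 receptors p = 0.024; 0.0061 is the smallest p that 330 ways to label the samples allow). It was at 27.2 to 31.3% at E14.5, 42.2 to 43% at E18.5 and 38.8 to 40.8% at P5. Notch2 went the other way, with 20.8 ± 5.5% in the embryo and 39.1 ± 5.1% in the adult (exact permutation test, p = 0.012, adjusted p = 0.024). The groups touched, since E14.5 replicate 1 was at 32.9% and the lowest adult sample at 32.4%. In that E14.5 sample the epithelial markers summed to 388 FPKM, against 621 and 611 in the other two, the acinar and secretory markers to 16.45 against 445 and 368, and the skeletal muscle markers to 418 against 177 and 132, and their part in its Notch2 share was not tested. Notch2 was the largest receptor share at 12wk, at 42.8 and 43.3%, and the smallest but for Notch4 in 6 of the 7 embryonic samples. Notch1 held 36.4 to 45.4% at E14.5, 22.6 and 23% at P5 and 30.1 to 35.7% in the adult, and its embryonic and adult means of 36.8 ± 6.3 and 32.4 ± 2.4% did not pass the exact permutation test (adjusted p = 0.23). Notch4 made up 5.95 ± 1.3 and 7.75 ± 1.8% (adjusted p = 0.11, exact permutation test). Without 4wk replicate 2 or without 12wk replicate 1, Notch2 and Notch3 both had an adjusted p of 0.067 (exact permutation test) and did not pass. With an adult sample left out, 0.067 is the lowest adjusted p that a gene standing alone can reach. Notch3 could therefore not have passed alone in those tests. Without 12wk replicate 2, Notch4 passed (2.46 percentage points higher in the adult, adjusted p = 0.044, exact permutation test).

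Of the ligand shares, only that of Dll4 passed the test. Jag2 held 50.8 ± 2.7% of the summed FPKM of the 4 ligands in the embryo (SD, n = 7) and 50.6 ± 7.7% in the adult (n = 4), where 4wk replicate 1 stood at 62% and the other adult samples at 45.7 to 48%. Jag1 (28.9 ± 3 and 32.1 ± 4%) and Dll1 (12.4 ± 1.7 and 13.2 ± 3.2%) did not pass the exact permutation test either, with adjusted p of 0.32 and 0.76. Dll4 held 7.86 ± 1.8% in the embryo and 4.07 ± 1.5% in the adult, with no overlap (exact permutation test, p = 0.0061, adjusted p = 0.024). With medians in place of means the adjusted p for Dll4 was 0.097 in the exact permutation test, and without 4wk replicate 2 or either 12wk sample it was 0.067. With an adult sample left out, 0.067 is the lowest adjusted p that a gene standing alone can reach. Those tests could therefore not have passed for Dll4 alone. The adult share of Dll4 rests on the few reads given above. Without 4wk replicate 1, Dll1 (2.39 percentage points higher in the adult) and Jag1 (4.99 higher) passed as well.

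**Figure D4:**
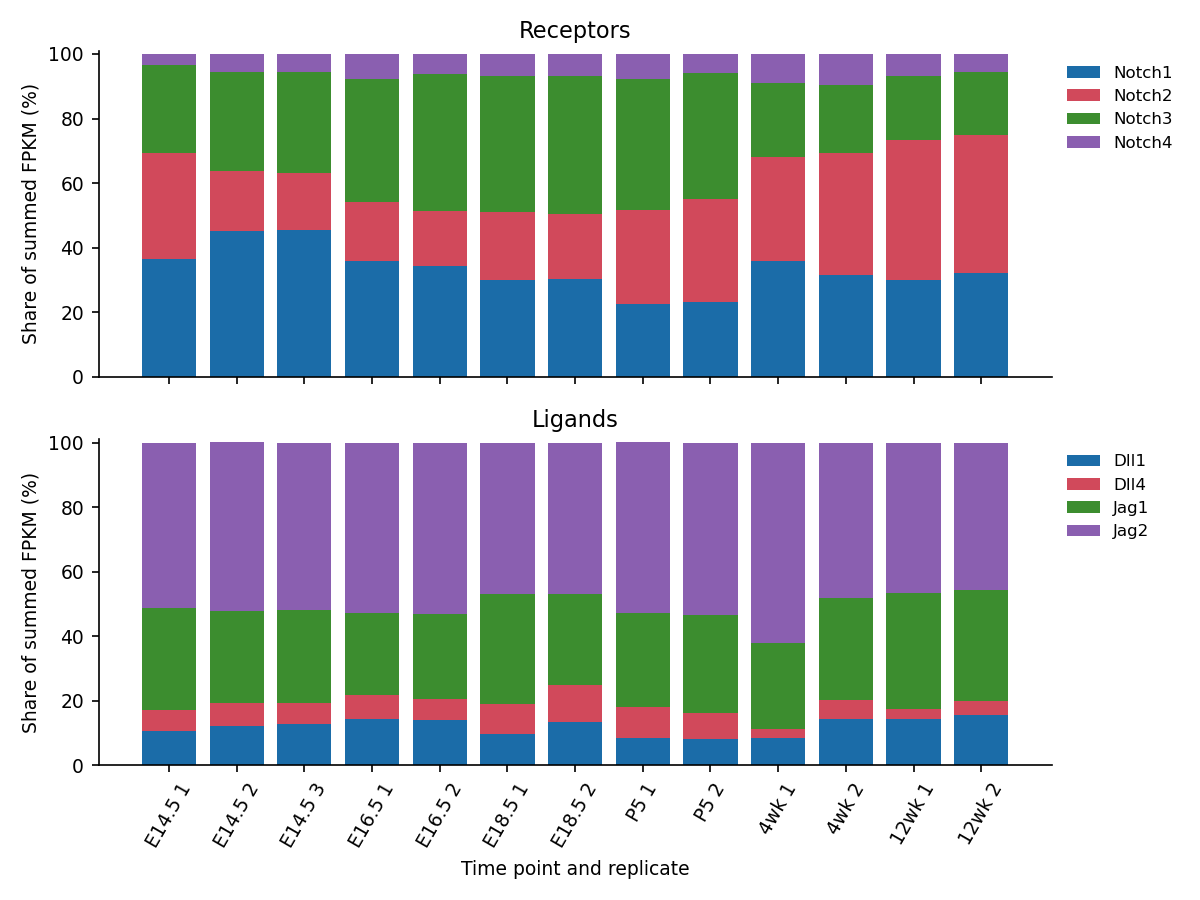
Share of each receptor (upper panel) and ligand (lower panel) in the summed FPKM of its class, in percent, 1 bar per sample in order of age. The green Notch3 part is 38.3 to 43% from E16.5 to P5 and 19.3 to 23% in the adult, the red Notch2 part widens to 42.8 and 43.3% at 12wk, and the red Dll4 part narrows in the adult.

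Endothelial markers fell as well, while the summed mural markers were lower in the adult only with deposited values. The 10 endothelial markers summed to 154 to 188 FPKM in the embryo, 122 to 172 at P5 and 33.7 to 63 in the adult; 9 of 10 fell from embryo to adult with deposited values (median log2 change -1.70) and 4 of 10 after rescaling (-0.96), and none of them was at 0 in any sample. The 6 mural cell markers summed to 63.7 to 93.8 FPKM in the embryo, 72.8 to 88 at P5 and 35 to 59.2 in the adult with deposited values. After rescaling, their sums were 51.1 to 71.9 in the embryo and 51.4 to 82.9 in the adult, and thus overlapped. Of the 6, 4 fell from embryo to adult with deposited values, and 3 fell and 1 rose after rescaling. Set against these lists within each sample, as the log2 ratio to the mean log2 level of the list, Notch3 went from 0.17 ± 0.26 to -0.83 ± 0.35 (embryo n = 7, adult n = 4; difference -1.0, two-sided exact permutation test, adjusted over 5 genes p = 0.015). With the median of the mural list in place of its mean, the difference was -0.617 (adjusted p = 0.15), and with medians over samples it was -0.839 (adjusted p = 0.061). With a pseudocount of 0.1 it was -1.09, and as a share of the summed mural FPKM -1.96 (exact permutation test, adjusted p = 0.015 for both). The mural markers did not move together. With deposited values Abcc9 (-2.69), Pdgfrb (-2.57), Cspg4 (-1.89) and Kcnj8 (-1.35) fell from embryo to adult, while Rgs5 (-0.06) and Anpep (0.47) did not pass. Notch3, at -2.34, lay between Cspg4 and Pdgfrb, so its ratio depends on which markers are in the list.

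Notch4 had a higher ratio to the endothelial markers in the adult, -1.46 ± 0.22 against -2.25 ± 0.2 (difference 0.79, exact permutation test, adjusted p = 0.015). All adult values of Notch4 were below the pseudocount of 1 in this ratio, which understates the fall of a low gene. In the exact permutation test the difference was 0.443 (adjusted p = 0.051) with a pseudocount of 0.1. It was 0.794 (adjusted p = 0.061) with medians over samples and 0.976 (adjusted p = 0.03) with the median of the marker list. Taken as a share of the summed marker FPKM, it was 0.254 (adjusted p = 0.23). These shares overlapped, at 0.98 to 1.86% in the embryo and 1.25 to 1.9% in the adult. Notch1 (difference -0.20, adjusted p = 0.5) and Hey1 (-0.62, adjusted p = 0.16) did not pass the exact permutation test against the endothelial list. The sign for Dll4 depended on the scale. Its ratio differed by 0.20 (adjusted p = 0.28) with a pseudocount of 1, but by -0.872 (adjusted p = 0.015) with a pseudocount of 0.1 and by -1.32 (adjusted p = 0.015) as a share of the summed marker FPKM. The adult Dll4 values, 0.199 to 0.401 FPKM, were all below the pseudocount of 1. Without 4wk replicate 1, the ratio with a pseudocount of 1 differed by 0.396 (exact permutation test, adjusted p = 0.028). As a share of the summed marker FPKM, Dll4 was 1.38 to 1.78% in embryonic glands, 1.46 and 1.47% at P5 and 0.316 to 0.906% in the adult samples. The mesenchyme markers also went down, from 1870 to 2700 FPKM in the embryo to 258 to 523 in the adult, with 6 of 7 lower on both scales, and their part in the levels of the members was not tested.

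Of 57 further genes of the Notch pathway, taken from a list ordered by role, 53 passed the filter on low values. From embryo to adult, 27 fell and 2 rose with deposited values (median -1.09, beside -0.75 for all genes), where 38.0% of all genes fell and 5.58% rose. After rescaling 9 fell and 4 rose (median -0.20, beside -0.08), where 14.7% of all genes fell and 13.8% rose. The genes that fell on both scales lay among ligands, receptor glycosylation, corepressors, negative regulators and targets. From embryo to P5, 3 fell and 1 rose with deposited values, where 8.14% of all genes fell and 4.14% rose, and from P5 to adult 16 fell and 1 rose, where 20.8% of all genes fell and 2.31% rose. After rescaling, 1 fell and 1 rose from embryo to P5 (median 0.01), where 3.90% of all genes fell. From P5 to adult, 6 fell and 4 rose on that scale (median -0.14), where 8.53% of all genes fell. The shares of all genes that rose over these rescaled steps are not given here.

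The targets Hey2 and Heyl fell on both scales. Hey2, a cardiac and arterial repressor, fell from 2.15 ± 1.06 FPKM in the embryo to 0.0957 ± 0.067 in the adult (log2 change -1.45, limma adjusted p = 5.3e-05; -1.17 after rescaling). Heyl fell from 4.54 ± 1.61 to 0.715 ± 0.15 FPKM (-1.63, adjusted p = 1.7e-05; -1.08 after rescaling). Hes6 fell with deposited values (-1.55) and was at -0.67 after rescaling, while Hes7 (-0.37, adjusted p = 0.16) did not pass on either scale. Hes2, Hes3 and Hes5, and the ligand Dll3, stayed under 1 FPKM in all samples and were not tested.

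After the ligand-like Dlk1, the negative regulators Numbl and Nrarp had the largest falls in the list with deposited values. Dlk1, a membrane protein of fetal tissues related to the ligands, went from 459 ± 62 FPKM in the embryo (SD, n = 7) over 145 ± 2.32 at P5 (n = 2) to 0.259 ± 0.0966 in the adult (n = 4), a log2 change of -8.51 from embryo to adult (limma adjusted p = 4.1e-15; -8.02 after rescaling). Dlk2 had -1.27 (adjusted p = 0.00042) and, after rescaling, -0.49 (adjusted p = 0.12). Numbl, related to the inhibitor Numb, fell by 3.17 (adjusted p = 1e-07; -2.56 after rescaling), and Nrarp, a target that feeds back on the pathway, by 2.90 (adjusted p = 1.1e-07; -2.30). The Deltex family gene Dtx3 fell by 2.24 (-1.37 after rescaling). Lfng, a glycosyltransferase that changes which ligands a receptor answers to, fell by 2.01 (-1.20 after rescaling). The histone deacetylases Hdac1 and Hdac2, which serve many repressor complexes, both fell by 2.32 (-1.40 after rescaling).

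A gene of the cleavage machinery and a coactivator rose on both scales. Aph1c, a subunit of γ-secretase, rose from 0.359 ± 0.106 FPKM in the embryo to 4.33 ± 0.772 in the adult (log2 change 1.96, limma adjusted p = 1.6e-08; 2.55 after rescaling). Kat2b, an acetyltransferase that acts as a coactivator, rose from 8.27 ± 3.72 to 26.5 ± 4.64 FPKM (1.65, adjusted p = 7e-05; 2.53 after rescaling). Fbxw7, which marks the active receptor for degradation, rose after rescaling (1.41) and was at 0.58 on the deposited scale, where it did not pass. None of the 4 genes for ligand endocytosis passed on either scale.

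**Figure D5:**
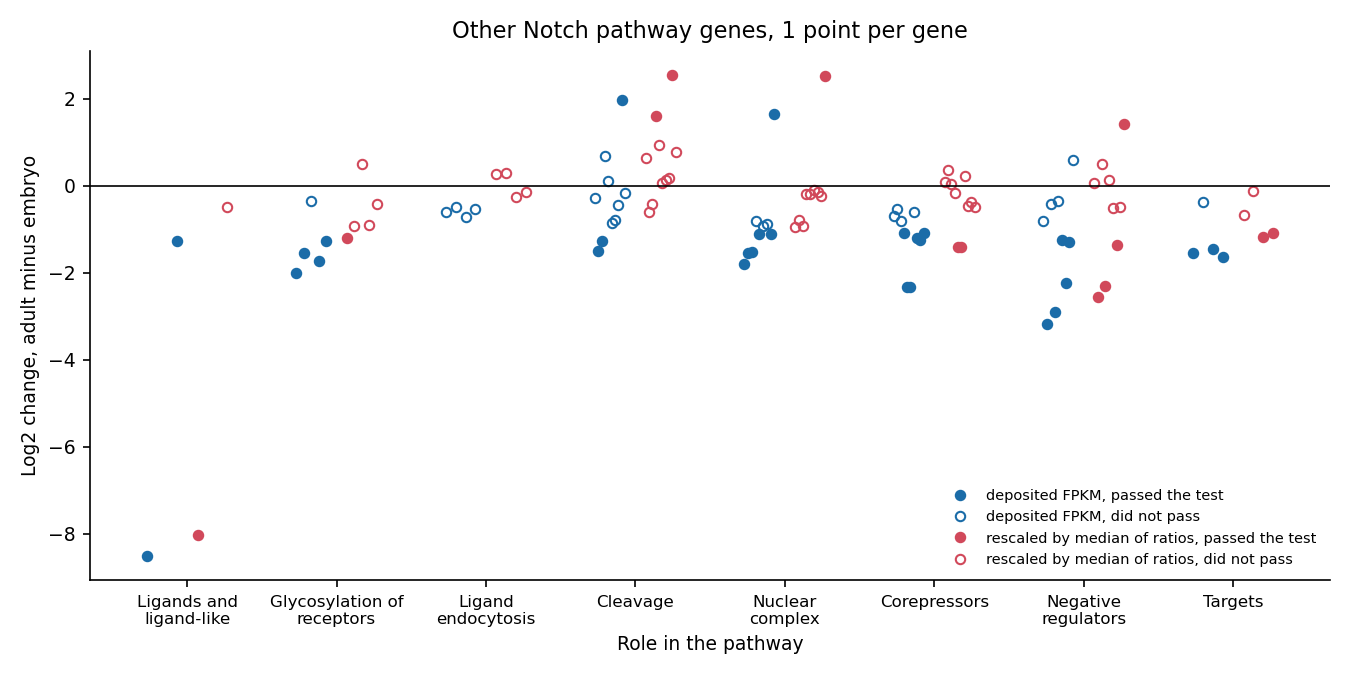
Log2 change from embryo to adult of the 53 tested further pathway genes, 1 point per gene, by role, with deposited FPKM in blue and rescaled FPKM in red. Filled points passed the test. Dlk1 lies at -8.51 and -8.02, and the rescaled points of the cleavage genes lie mostly above 0.

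Over the 13 samples, the members rose and fell with each other and with many other genes. Between pairs of members, Pearson's r on log2(FPKM + 1) ran from 0.69 (Notch2 and Hey1) to 0.98 (Jag1 and Jag2); these samples share the difference in composition between ages, so the values are a description. Of the 14650 genes, those most like Notch1 were Zfp46, Bahcc1 and Wbp11 (r = 0.991 to 0.992), those most like Notch2 included Zbed6 and St7 (0.976 and 0.969), those most like Notch3 were Zfp36l1, Fam65c and Arhgap1 (0.991 to 0.992), and those most like Notch4 were Tnfrsf1a, Ptms and Tonsl (0.970 to 0.972). For the ligands they were Zbtb45, Fbxl14 and Puf60 for Dll1 (0.986 to 0.988), Snx9, Arap3 and Spry1 for Dll4 (0.986 to 0.989), Ttc28, Plxna1 and Ddx42 for Jag1 (0.992 to 0.994), and Hnrnpl, Specc1 and N4bp1 for Jag2 (0.992 to 0.996). For the targets they were Cited2, Fam171a2 and Prpsap1 for Hes1 (0.983 to 0.986), and Nup50, Rprd1b and Chtf8 for Hey1 (0.982 to 0.985).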

How the data were processed

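Total RNA of dissected submandibular glands was sequenced as 50 bp single-end reads. Per the labels and the study's methods, the authors mapped reads to mm9 with TopHat2 2.0.13 and Bowtie2 2.2.6, counted reads of unique position and gene with featureCounts, and deposited FPKM derived with DESeq2 1.10.1. The factors computed from the deposited FPKM, 1.148 to 1.38 in the embryo and 0.617 to 0.714 in the adult, are not near 1, although the study describes its FPKM as brought to a common scale with DESeq medians. The deposited FPKM were taken as scaled to each sample's total, and median-of-ratios rescaling was set beside them. Depth was recovered from the FPKM steps with GENCODE vM1 lengths. Reads per member were taken at the shortest searched length that made its values whole reads in all samples (within 0.001). That length need not be the GENCODE length.

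Genes reaching 1 FPKM in any sample were tested as log2(FPKM + 1) with limma 3.58.1 (R 4.3.3, mean-variance trend), by stage and by time point, with Benjamini-Hochberg adjustment over all tested genes and limits of a log2 change of 1 and an adjusted p of 0.1. FPKM are not counts, so no count model was fitted. Shares and ratios were tested by exact permutation (threshold 0.05, scipy 1.17.1), adjusted within each family of genes. The fits were tested on simulated data. The study calls its replicates biological; litters are not named.

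The members, pathway list and marker lists were chosen with earlier results of these data known. All 10 members are named. Further pathway genes are named if they passed from embryo to adult on both scales, or are ligands, Hes or Hey genes; Fbxw7 was named after its values were seen. The 3 genes most like each member are those with the highest Pearson r; a few genes that the rules name are not reported here. Alternatives were other pseudocounts, filters, limits and weights, the rescaling, a fit without trend, a replicate block and leaving out samples. Leaving out both 4wk samples, and shares of summed marker FPKM, were added after seeing the data.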

Additional observations from a re-analysis of the deposited data

Results flagged for a closer look

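Of 46 groups of member values examined, 4 held a sample whose gap to the nearest other sample passed Dixon's 95% limit; chance flags about 1 in 20 groups. Notch3 in the embryo was at 23.1 FPKM in E16.5 replicate 2 and at 10.2 to 14.6 in the other 6 embryonic samples, and the same sample stood at 0.751 for the log2 ratio of Notch3 to the mural markers, where the others were at -0.00804 to 0.169. Notch2 held 32.9% of the receptor FPKM in E14.5 replicate 1, and 17.1 to 21.2% in the other embryonic samples; epithelial markers summed to 388 FPKM in that sample and to 621 and 611 in the other E14.5 samples, acinar and secretory markers to 16.45 against 445 and 368, and skeletal muscle markers to 418 against 177 and 132. Jag2 held 62% of the ligand FPKM in 4wk replicate 1, the sample with the fewest reads (5817293 on genes), and 45.7 to 48% in the other adult samples.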

How the results depend on the processing

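The counts of fallen members moved with the pseudocount and with the scaling. After median-of-ratios rescaling 1 member fell from embryo to P5, 3 from P5 to adult, 5 from embryo to adult, 1 from E16.5 to E18.5 and 2 from P5 to 4wk; with a pseudocount of 0.1 in place of 1, 3 fell from embryo to P5, 9 from P5 to adult, 10 from embryo to adult, 9 from P5 to 4wk and 1 from E18.5 to P5. No member rose under either, and the shares of all genes that fell are given with these counts above. Deviations from the time point means had a mean correlation of -0.016 for equal replicate numbers (30 pairs, -0.35 to 0.27). For unequal numbers it was 0.012 (40 pairs). Where a time point has 2 samples, their deviations are mirror images. The second mean therefore largely restates the first with its sign turned, and the contrast of the 2 means is no test of pairing. Of the 13 samples, 4 correlated best with their own number. The labels give replicate numbers only as names. With the replicate block 1 member, Hey1, fell from embryo to P5, where Notch1 lost its call at -0.99, 5 from P5 to adult and 8 from embryo to adult. Leaving out each sample in turn gave 1 to 2 fallen members from embryo to P5, 5 to 6 from P5 to adult, 8 to 9 from embryo to adult, 0 from E14.5 to E16.5, 1 to 5 from E16.5 to E18.5, 0 to 1 from E18.5 to P5, 4 to 7 from P5 to 4wk, and 0 from 4wk to 12wk. Without both 4wk samples, 9 fell from embryo to adult, with Notch4 (-1.01) added. The shares of all genes that fell with the replicate block or with samples left out are not given here, so these counts describe the members only. Of the shares, 0 to 3 of the receptors and 0 to 3 of the ligands passed when a sample was left out, and 0 ligands with medians; without an adult sample fewer labelings remain, and a gene that stands alone reaches an adjusted p of 0.067 at best. Of the ratios to vessel markers, 2 to 3 passed when a sample was left out, 0 with medians and 1 with the median of the marker list, and Dll4 reversed to -0.872 (pseudocount 0.1) and -1.32 (share of summed marker FPKM). The depth at 4wk limits Dll4 most, which had 4 reads in 1 sample.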

Other observations

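Ratios between members within a sample do not depend on the scaling. Hes1 was 1.47 to 1.96 times Hey1 in the E14.5 samples, 2.83 to 3.42 times at E16.5, 3.31 to 4.01 times at E18.5, 8.55 times in both P5 samples, 5.4 to 6.69 times at 4wk and 4.53 to 7.51 times at 12wk. Notch3 was 0.676 to 0.747 times Notch1 at E14.5, 1.69 to 1.8 times at P5, and 0.6 to 0.668 times in the adult samples, so that the order of these receptors turned 2 times. Notch2 was 0.403 to 0.477 times Notch3 at E16.5 and 2.2 to 2.22 times at 12wk. These ratios are given as values, with no test.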
